A study of Xenopus tropicalis with 2 samples.

Results

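Thyroid hormone receptor (TR) peaks deep in gene bodies, with the summit over 10 kb and up to 50 kb past the transcription start site (TSS) of the gene that holds it, made up 470 of the 6302 peaks (7.46%, 95% interval 6.82 to 8.13%). A peak was taken when its summit lay inside at least 1 gene body and over 1 kb from every TSS of the genes in the deposited list of peak and gene pairs. The gene whose TSS was nearest among those that contained the summit counted as its host. The choice used position alone and no peak height. Peaks came from chromatin immunoprecipitation and sequencing (ChIP-seq) of wild-type tadpoles of the frog Xenopus tropicalis, staged as Nieuwkoop-Faber (NF) 62, the climax of metamorphosis. The tissue was the piece of brain with the preoptic area, hypothalamus and thalamus. There was 1 TR ChIP library, made with a polyclonal antiserum to Xenopus TRs, and 1 input library from the same kind of chromatin with no antibody. Neither had a replicate, the labels name no receptor subtype and give no number of tadpoles, and the genome build is not given in the sources used here.

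TRs belong to the nuclear receptors and recognise response elements in DNA, usually paired with a retinoid X receptor. Without hormone they recruit corepressor complexes, and with hormone they exchange these for coactivators such as the NCOA proteins. In tadpoles, thyroid hormone (TH) drives metamorphosis and reshapes the brain, and TR binding can sit at promoters or at enhancers, many of which lie in introns. The deposited gene models held start, end and strand only, so introns, exons and UTRs could not be told apart and the summits are described by distance alone.

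Peak height is the deposited fold enrichment at the summit, a linear ratio of TR ChIP over background. Fold and deposited p-value together were solved for the ChIP fragments over each summit and for the background expected there. A fold is given with the exact 95% Poisson interval of its ChIP fragments, which takes the background as known, and every peak was called for its height. A share is given with its exact (Clopper-Pearson) 95% binomial interval. Both cover counting error only. With 1 library a group there was no test between groups, and the peaks of 1 library are not replicates of a condition. The total depth of the libraries is unknown.

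The 470 summits were more numerous at the near end of the distance range than at the far end. Their median distance past the TSS was 25.2 kb (quartiles 17.3 and 36.1 kb), with 156 summits at 10 to 20 kb, 142 at 20 to 30 kb, 93 at 30 to 40 kb and 79 at 40 to 50 kb. The number of genes that reach so far fell too, from 11632 named protein-coding genes over 10 kb long in RefSeq to 4373 over 40 kb. Whether this accounts for the falling counts was not tested. Per length of gene body, peaks over 10 to 50 kb in numbered 1.499 per Mb (95% Poisson interval 1.35 to 1.66), from 379 peaks in 252.8 Mb. The density from 1 to 10 kb was 3.53 per Mb (3.20 to 3.87). Within the range, it was 1.29 per Mb (1.07 to 1.54) at 10 to 20 kb, 1.68 (1.38 to 2.01) at 20 to 30 kb, 1.58 (1.25 to 1.96) at 30 to 40 kb and 1.62 (1.24 to 2.07) at 40 to 50 kb. These 4 intervals overlapped each other, and a trend with distance was not tested. Deeper still, the density was 1.65 per Mb (1.42 to 1.91) at 50 to 100 kb and 1.30 (1.11 to 1.499) at 100 to 1000 kb. The higher density of the range from 1 to 10 kb, taken as a whole, was therefore not seen past 10 kb. Intragenic peaks up to 10 kb in had a median distance of 2329.5 bp and an upper quartile of 4610.5 bp. That range was not divided, so where in it the density falls was not measured. Gene body lengths here are those of RefSeq, and peaks farther in than the RefSeq gene is long were left out of these densities by distance.

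**Figure D1:**
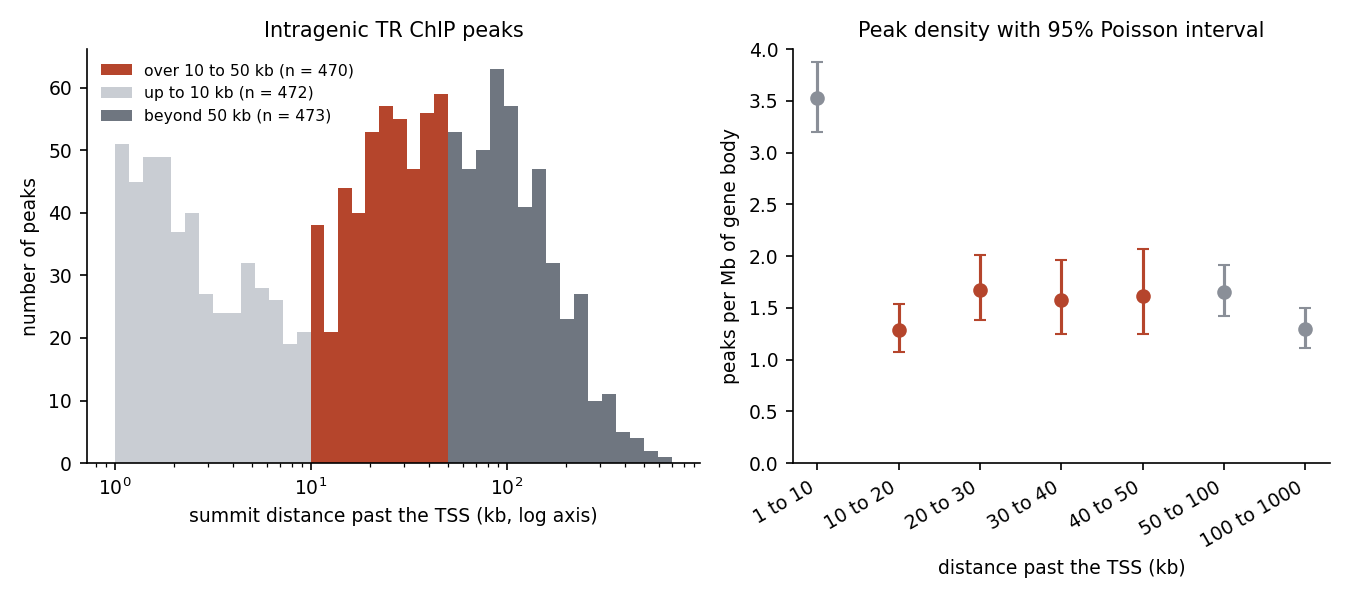
Left, the number of intragenic peaks against the distance of the summit past the host TSS (kb, log axis), with the 470 peaks over 10 to 50 kb in red between 472 nearer and 473 deeper peaks. Right, peaks per Mb of RefSeq gene body in each distance range, with exact 95% Poisson intervals. The 4 red ranges lie between 1.29 and 1.68 per Mb, below the 3.53 per Mb of the undivided range from 1 to 10 kb.

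In height, these peaks were like the other peaks away from promoters. The median fold was 4.05 (quartiles 3.497 and 4.75, range 2.34 to 18.4) over 10 to 50 kb in, against 3.96 for intragenic peaks up to 10 kb from the TSS, 3.89 beyond 50 kb, 4.05 outside gene bodies and 4.16 within 1 kb of a TSS. A median of 20 ChIP fragments (quartiles 17 and 26, range 8 to 98) stood over a background of 4.30 (range 1.57 to 11.1). Intragenic peaks up to 10 kb and beyond 50 kb also had medians of 20 ChIP fragments and a background of 4.30. Peaks within 1 kb of a TSS had 28 ChIP fragments and a background of 6.14. TSS peaks thus rested on more fragments over a higher background, at a median fold that differed little. Under 15 ChIP fragments were found in 64 of the 470 peaks (13.6%), against 39 of 3388 TSS peaks (1.15%). The share was 11.4% for intragenic peaks up to 10 kb in, 15.4% beyond 50 kb, 14.1% outside gene bodies and 6.998% over all peaks. Single folds in each class away from TSSs, and not only over 10 to 50 kb in, thus carry wide counting errors more often than TSS peaks. Median width over 10 to 50 kb in was 289.5 bp, against 318.5 bp up to 10 kb in, 287 bp beyond 50 kb, 301 bp outside gene bodies and 367 bp at TSSs. A width of 800 bp or more was found in 5 of the 470 peaks, against 292 of all 6302.

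A fold of at least 5 was reached by 92 of the 470 peaks (19.6%, 16.1 to 23.5%), against 24.5% of all peaks. The share was 14.8% (11.7 to 18.4%) for intragenic peaks up to 10 kb from the TSS, 17.3% (14.0 to 21.1%) beyond 50 kb and 19.3% outside gene bodies. These intervals overlap that of the peaks over 10 to 50 kb in. For TSS peaks the share was 29.8% (28.3 to 31.4%), above that interval. By distance, the share was 21.8% at 10 to 20 kb, 20.4% at 20 to 30 kb, 19.4% at 30 to 40 kb and 13.9% at 40 to 50 kb, with intervals that overlapped (15.6 to 29.1% for the first and 7.16 to 23.5% for the last). Of the 92 peaks, 28 had 30 or more ChIP fragments and 35 had a background of at most 2.5, where few fragments suffice for a high fold. The lower end of the interval lay above the median fold of all peaks in 27 of the 470 (5.74%). That share was not computed over all peaks or for the other classes, so it has no baseline here.

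**Figure D2:**
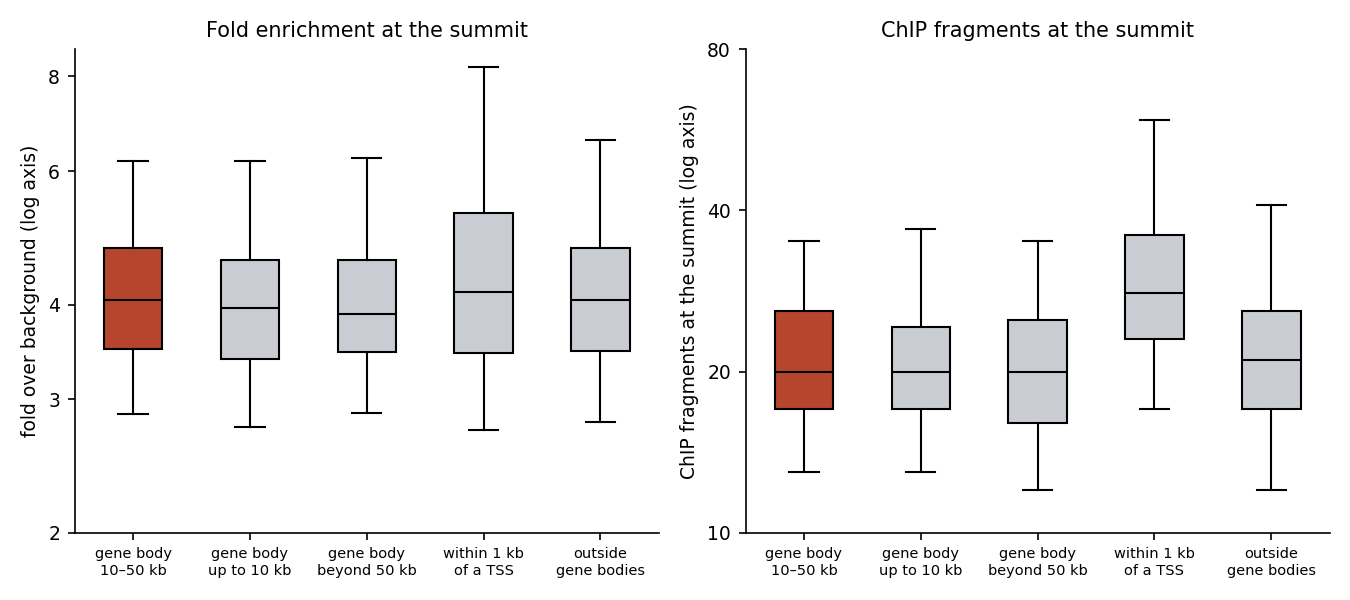
Fold over background (left) and ChIP fragments at the summit (right) by position class, both on log axes, with peaks over 10 to 50 kb into a gene in red. Boxes span the quartiles with the median as a line and whiskers reach the percentiles 5 and 95 of each class. Median folds lie between 3.89 and 4.16, and median fragments are 20 in the 3 gene body classes and 28 at TSSs.

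The highest named peak lay in elp3, which encodes the catalytic subunit of the Elongator complex. It had 74 ChIP fragments over a background of 3.07, a fold of 18.4 (14.5 to 23.1), with the summit 31.5 kb past the TSS on an unplaced scaffold. The next was in rnf126, a ubiquitin ligase gene, at chromosome 1, 86730983 to 86731513, with 51 fragments over 3.69, a fold of 11.1 (8.32 to 14.5), 36.0 kb in. No other peak lay within 5 kb of either summit, and both summits lie within the RefSeq length of their gene. In erlin2, which encodes a membrane protein of the endoplasmic reticulum, a peak at chromosome 3, 115001543 to 115001892, had 75 fragments over 6.74, a fold of 9.82 (7.75 to 12.3). The peak of cttn, the gene of the actin regulator cortactin, at chromosome 4, 6524711 to 6525137, had 30 fragments over 2.204, a fold of 9.68 (6.63 to 13.7), 10.1 kb in.

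The named peaks next in fold had the following values. Those of polr2e, rps18, rpl3, atg9a and svip, and that of erlin2 above, have summits past the RefSeq length of their gene, as detailed below. The peak of polr2e, a subunit shared by the nuclear RNA polymerases, had 62 fragments over 6.14, a fold of 8.82 (6.79 to 11.3). Those of the ribosomal protein genes rps18 and rpl3 had folds of 8.27 (5.77 to 11.5) and 6.42 (4.57 to 8.79). In nom1, which encodes a nucleolar protein, the fold was 7.90 (5.59 to 10.8). The cytochrome c oxidase assembly factor gene coa6 had 66 fragments over 8.60, a fold of 6.98 (5.42 to 8.85), and the autophagy gene atg9a had 57 over 7.37, a fold of 6.93 (5.28 to 8.94). The peak of svip, which encodes a partner of the VCP segregase, had 27 fragments over 1.84, a fold of 9.85 (6.61 to 14.2).

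Among the same 20 peaks were those of pou2f1, ncoa3, nsd1 and epc1. The peak of pou2f1, the gene of the octamer-binding factor Oct-1, had 38 fragments over 4.67 at chromosome 2, 1854252 to 1854825, a fold of 6.88 (4.92 to 9.38), 48.0 kb in. The coactivator gene ncoa3 had 21 over 2.33 at chromosome 10, 28947154 to 28947439, a fold of 6.60 (4.20 to 9.93). The histone methyltransferase gene nsd1 had 36 over 4.92 at chromosome 3, 36745908 to 36746352, a fold of 6.26 (4.43 to 8.59). The gene epc1, for a subunit of a histone acetyltransferase complex, had a fold of 6.23 (4.32 to 8.71). The rest of the 20 highest named peaks lay in the RNA-binding protein gene celf2 (6.60), the transporter gene slc5a8.1 (6.61), cuedc1 (6.39), the sialyltransferase gene st8sia6 (6.35) and the phosphatase gene ptpn18 (6.18). Below elp3, the intervals of peaks next to each other in fold overlap widely, so the order of such neighbours is not resolved by the fragments counted. Peaks far apart in fold overlap less, as with rnf126 (8.32 to 14.5) and nsd1 (4.43 to 8.59). Of these 20 peaks, 7 had a host with a further peak at its own TSS, and 1 had another peak within 5 kb.

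**Figure D3:**
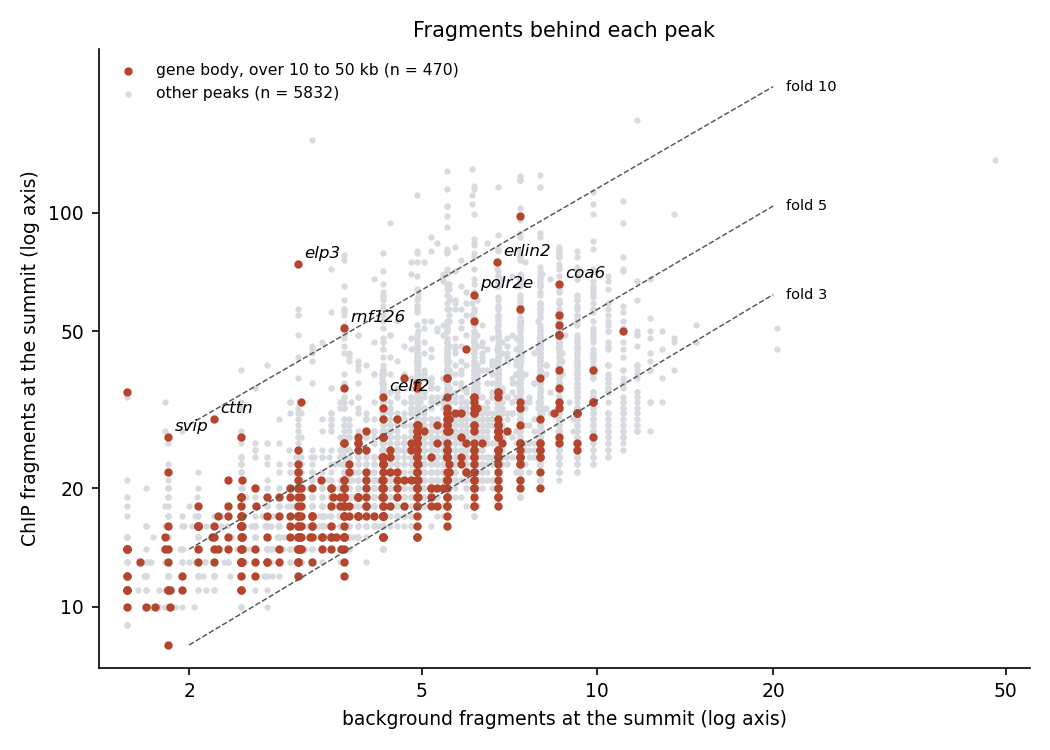
ChIP fragments at the summit against the background expected there (both log axes), for the 470 peaks over 10 to 50 kb into a gene (red) and the 5832 other peaks (grey). Dashed lines mark folds of 3, 5 and 10. The peak of elp3, at 74 fragments over 3.07, stands above the line of fold 10, and most red points lie under the line of fold 5.

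Of the 20 highest folds of any name, 5 lay in genes without a usable name. The highest of these were a pair of peaks 2695 bp apart on chromosome 9 in the same 21.8 kb gene, with 35 fragments over 1.57 (fold 14.0) and 98 over 7.37 (fold 11.8). Both summits were inside 4 overlapping genes, so the host is only the one with the nearest TSS. Of the 30 peaks inside 2 or more genes, 13 had a fold of at least 5 (43.3%, 25.5 to 62.6%). Pairing also counts genes whose 10 kb upstream part holds the peak. Of the 51 peaks paired with 2 or more genes in this way, 22 had a fold of at least 5 (43.1%, 29.3 to 57.8%), against 70 of the 419 paired with 1 gene (16.7%, 13.3 to 20.6%). Median ChIP fragments were 26 for several genes, against 20 for 1 gene. The 30 peaks lay in 21 hosts, the 51 in 41 and the 419 in 356. Intervals of these shares treat peaks of the same host as independent, which can make them too narrow.

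For some hosts the deposited gene is far longer than the gene of the same name in RefSeq, and the distance then reaches past the RefSeq gene. This was so for 56 of the 439 peaks whose host had a RefSeq length (12.8%, 9.78 to 16.2%). The same count was 7 of 450 for intragenic peaks up to 10 kb from the TSS (1.56%) and 78 of 447 beyond 50 kb (17.4%). Among peaks over 10 to 50 kb in with a fold of at least 5 it was 17 of 82 (20.7%, 12.6 to 31.1%), against 39 of 357 under 5 (10.9%, 7.88 to 14.6%). These intervals overlap. Beyond 50 kb the same split was 28 of 77 (36.4%, 25.7 to 48.1%) against 50 of 370 (13.5%, 10.2 to 17.4%), with intervals apart. Up to 10 kb in it was 3 of 65 (4.62%) against 4 of 385 (1.04%). The 56 peaks had a median of 25 fragments over 5.53 and a fold of 4.32, against 20 over 4.30 and 4.01 in the other 383. Of the 20 highest named peaks 7 were of this kind. In svip the RefSeq gene is 4.22 kb long and the deposited gene 95.3 kb, in erlin2 18.96 and 59.0 kb, in polr2e 7.58 and 28.7 kb, and in rps18 5.73 and 131.1 kb. The others were in rpl3 (5.90 kb in RefSeq), atg9a (19.7 kb) and slc5a8.1 (22.1 kb). For such hosts, whether the summit lies inside the transcribed gene was not tested. The reverse occurred too, with deposited genes shorter than in RefSeq. Lengths were 11.8 against 41.6 kb in rcor2, 93.7 against 237.1 kb in ncoa1 and 68.0 against 107.0 kb in ncoa3. They were 83.3 against 115.6 kb in dnmt3a and 157.9 against 273.2 kb in grin2b. Distances count from the deposited TSS, and whether it is the TSS of the RefSeq gene in these hosts was not tested.

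Only TSSs of genes in the deposited pairs of peak and gene could be used. Such a TSS of another gene lay within 5 kb of the summit for 16 of the 470 peaks. The other 454 were over 5 kb from every TSS of the paired genes. The 3 named peaks of highest fold among the 16 were those of rps18, 3027 bp from the other TSS, slc5a8.1, 1806 bp from it, and rpl3, 4756 bp from it. The median ChIP fragments of the 16 were 27.5, against 20 in the 454. Of the 470 summits, 34 lay within 5 kb of the end of the host and 5 within 1 kb. The median position was 43.1% of the way through the gene (quartiles 26.9 and 63.2%). The 50 kb limit on distance sets these values in part, as the median gene length counted per peak was 61.6 kb. Hosts were long genes, with a median length of 57.6 kb, against 19.6 kb over all genes with a peak, as a lower bound of 10 kb on distance requires in part.

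Most hosts held a single such peak. The 470 peaks lay in 395 hosts, of which 341 had 1, 44 had 2 and 10 had 3 or more. Another peak within 5 kb was found for 88 of the 470 (18.7%, 15.3 to 22.5%), against 268 of 472 intragenic peaks up to 10 kb from the TSS (56.8%, 52.2 to 61.3%) and 93 of 473 beyond 50 kb (19.7%). The share was 22.8% over all peaks and 17.3% for peaks within 1 kb of a TSS. Peaks over 10 to 50 kb in thus had another peak nearby no more often than all peaks, and a few genes held the largest clusters.

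The gene with the most was r3hdm1, named for its R3H domain, with 7 peaks in 7.25 kb of chromosome 9. In order from the TSS their summits lay at 35.2, 36.1, 36.6, 37.0, 37.9, 39.1 and 42.5 kb, and their folds were 5.05, 5.16, 3.08, 4.18, 5.27, 5.16 and 5.29. ChIP fragments were between 13 and 32 a summit, and all 7 intervals overlap. The gene had a nearer peak at 8.73 kb (fold 5.18) and a deeper one at 55.1 kb (3.22), and none at its TSS.

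In celf2, which encodes a regulator of splicing and RNA stability in neurons, 5 peaks lay in 4.0 kb of chromosome 3. From the TSS inward, at 26.7, 28.1, 29.2, 29.9 and 30.7 kb, the folds were 6.60, 4.72, 3.98, 3.51 and 3.84, with 34, 24, 20, 18 and 17 fragments. The highest of the 5 was the nearest to the TSS, and its interval (4.63 to 9.15) overlaps those of the others. The gene also had a peak at its TSS (4.56), 2 nearer ones at 2.51 kb (5.80) and 4.19 kb (3.69), and 1 at 101.6 kb (3.41).

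In bcor, the gene of the BCL6 corepressor, 4 of its 12 peaks lay over 10 to 50 kb in, at 37.9, 44.3, 47.6 and 48.3 kb, with folds of 3.83, 3.72, 4.20 and 3.11 and 21 to 29 fragments. There was no peak at its TSS. The 3 nearer peaks (3.28, 3.22 and 3.64) were of like height, and the highest of the 5 deeper ones, at 61.6 kb, had a fold of 5.55 (3.78 to 7.89). In msra.1, a methionine sulfoxide reductase gene on an unplaced scaffold, 5 peaks between 22.4 and 44.0 kb had folds of 3.58 to 4.73 with 14 to 28 fragments, spread over 21.6 kb.

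The remaining named hosts with 3 such peaks were dlg3, rai1, hmgn1 and stox2. The 3 of dlg3, a synaptic scaffold gene, lay within 1.92 kb on chromosome 8 (folds 4.58, 3.64 and 3.01). The 3 of rai1, which encodes a nuclear chromatin-associated protein, had folds of 2.99, 3.996 and 4.48, below its TSS peak at 7.13 (4.94 to 9.97). Those of stox2 were between 2.99 and 3.55. Those of hmgn1, a nucleosome-binding protein gene, had folds of 2.84 to 3.78, and its deposited length of 90.0 kb stands against 7.30 kb in RefSeq. A pair of hosts without a usable name, on chromosomes 8 and 9, held 4 each. The widest peak of the 470, of 1423 bp, lay in calm2, a calmodulin gene, with 49 fragments over 8.60 (fold 5.21, 3.88 to 6.85). Its summit at 13.4 kb is past the RefSeq length of that gene, 10.4 kb. The next widest were in celf2 (969 bp) and dlg3 (891 bp).

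**Figure D4:**
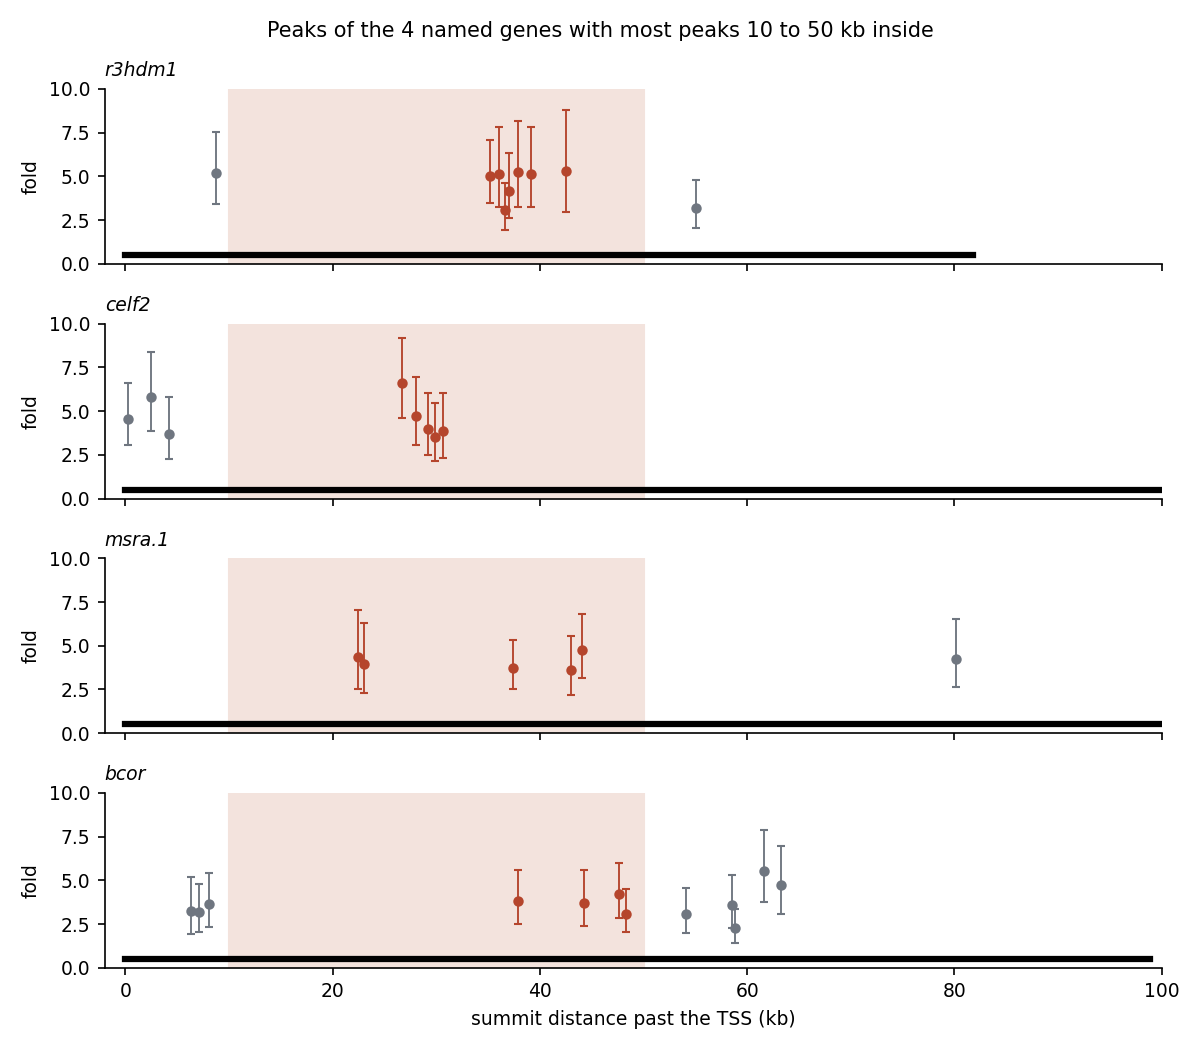
Peaks of r3hdm1, celf2, msra.1 and bcor by the distance of the summit past the TSS (kb, cut at 100 kb) and fold over background, with exact 95% Poisson intervals on the ChIP fragments. Red points lie in the shaded range of 10 to 50 kb, grey points outside it, and the black bar is the deposited gene body. The 7 red points of r3hdm1 sit between 35.2 and 42.5 kb and the 5 of celf2 between 26.7 and 30.7 kb.

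Some hosts also had a TR peak at their own promoter, but most did not. A peak within 1 kb of the own TSS was present in 113 of the 395 hosts (28.6%, 24.2 to 33.3%), against 21.8% of all named protein-coding genes over 10 kb long. These sets are unlike. Hosts are deposited genes with a median length of 57.6 kb, and the named genes, matched by symbol, have a median RefSeq length of 29.6 kb. Whether the shares differ at equal length was not tested. A peak at the own TSS was present in 168 of 384 hosts of peaks up to 10 kb in (43.8%, 38.7 to 48.9%) and in 92 of 329 hosts of peaks beyond 50 kb (28.0%, 23.2 to 33.1%). Of all 395 hosts, 31 also held a nearer intragenic peak and 50 a deeper one. These counts can overlap each other and the 113 hosts with a TSS peak. In 240 hosts (60.8%, 55.8 to 65.6%) no peak of these 3 kinds was present beside those over 10 to 50 kb in.

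Where both were present, neither was regularly the higher. The highest peak over 10 to 50 kb in had the larger fold in 51 of 113 hosts (45.1%, 35.8 to 54.8%). Median fold was 4.05 inside the gene, against 4.13 at the TSS, from 18 fragments over 3.76 inside, against 25 over 5.44 at the TSS. The ratio was highest in cuedc1, with 6.39 inside against 3.22 at the TSS, in the membrane protein gene lhfpl4, with 5.76 against 2.91, and in the chromatin gene setd5, with 4.92 against 2.51. In setd5 this came from 16 fragments over 2.46 inside and 20 over 7.37 at the TSS, so the larger fold had the fewer fragments. It was lowest in dnajc6, which encodes the neuronal uncoating factor auxilin, with 3.52 inside against 9.03 at the TSS. The next lowest was aak1, a kinase gene of clathrin-mediated endocytosis, with 2.70 inside against 6.82 at the TSS.

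Gene groups were described by how many of their members over 10 kb long in RefSeq had a peak over 10 to 50 kb in. Over all 11632 named protein-coding genes of that length the share was 2.97%, with 1.60 peaks per Mb of RefSeq gene body between 10 and 50 kb (1.45 to 1.76). This and the list densities below keep peaks that lie past the RefSeq length of their host, so 404 peaks enter here against the 379 of the density by distance. In 20 lists with 830 distinct genes, 52 listed genes over 10 kb long were hosts. Listed genes are longer than the rest in most lists, which raises the chance of holding a peak, so densities are given too. The Poisson interval of a density treats peaks as independent. Peaks that share a gene, such as those of bcor and celf2, make that interval too narrow. No list was tested, and the lists were chosen with earlier results of these data known. Where a list has no such peak, the limit given is 3 counts of its genes, a smaller value than the upper end of the exact interval that the plot of lists shows.

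Nuclear receptor coregulators, which carry out repression and activation for TRs and related receptors, had such a peak in 6 of 28 genes (21.4%, 8.30 to 41.0%). Their density was 11.2 peaks per Mb (5.36 to 20.5), from 10 peaks of which bcor held 4. The coactivator genes were ncoa3 with folds of 6.60 and 2.58, ncoa1 with 5.98 (3.57 to 9.49) from 16 fragments over 1.84, and ncoa2 with 3.55. The acetyltransferase gene crebbp had a peak of 5.53 (3.30 to 8.78), also from 16 fragments, at 97.5% of the way through the gene. The corepressor genes were bcor and rcor2. The gene rcor2, for a CoREST protein, had a peak of 4.53 (2.94 to 6.70) at 10.6 kb. The median fold of the 10 peaks was 4.01, against 4.05 over all 470.

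Genes that write or erase marks on histones and DNA had a peak in 6 of 48 (12.5%, 4.73 to 25.2%), at 6.11 per Mb (2.80 to 11.6). Both kinds of DNA methylation enzyme were among them. The methyltransferase gene dnmt3a had peaks at 26.4 kb, with 30 fragments over 5.53 (4.75, 3.25 to 6.71), and at 38.4 kb, with 18 over 3.63 (4.10, 2.52 to 6.36). The demethylation gene tet3 had peaks at 23.3 kb, with 29 fragments over 5.53 (4.59, 3.13 to 6.53), and at 10.3 kb, with 19 over 3.53 (4.42, 2.75 to 6.78). A further tet3 peak at 9.92 kb (3.68) fell just short of the lower bound. The histone methyltransferase gene nsd1 had 6.26, and the chromatin gene setd5 had 4.92 and 2.91. The deacetylase gene hdac4 had 3.55 and the demethylase gene kdm2b had 3.44. In nsd1 the fold was larger inside, at 6.26 (4.43 to 8.59) from 36 fragments, than at the TSS, at 3.22 (2.11 to 4.73) from 24. These intervals overlap, and the fold was larger inside in 51 of the 113 hosts with both peaks.

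Chromatin remodelling genes had a peak in 5 of 31 (16.1%, 5.45 to 33.7%), at 5.12 per Mb. These were bptf (4.50), chd8 (4.06), pbrm1 (3.40), chd9 (3.22) and bcl11b (3.02), each with 1 peak of 14 to 28 fragments. Their median fold of 3.40 was under the 4.05 of all 470 peaks.

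Regulators of RNA binding and splicing had a peak in 8 of 43 (18.6%, 8.39 to 33.4%), at 9.38 per Mb (4.85 to 16.4), from 12 peaks of which celf2 held 5. With gene names as deposited the count was 5 genes, and among the peaks above the median −log10 adjusted p it was 3 genes. After celf2 came tnrc6a, of the microRNA silencing pathway (4.57, 3.17 to 6.39), khdrbs1 (4.10), the neuronal splicing factor gene nova1 (3.89), the splicing factor gene mbnl1 (3.72) and celf5 (3.64). The other two hosts had lower folds. The khdrbs1 summit, at 43.4 kb, is past the RefSeq length of that gene, 13.2 kb.

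Transcription factor genes of neurons and progenitors had a peak in 5 of 60 (8.33%, 2.76 to 18.4%), at 2.76 per Mb (1.01 to 6.01). These were foxp4 (5.78), tshz2 (5.37), tcf7l2 (4.92), zeb2 (4.18 and 3.41) and satb1 (3.80). The density interval of this list held the value of all genes. Wnt pathway genes had a peak in 5 of 40 (12.5%, 4.19 to 26.8%), at 5.30 per Mb (2.13 to 10.9). They were the planar polarity genes vangl2 (5.19) and prickle2 (4.48 and 3.20), tcf7l2 again, the receptor gene fzd3 (4.20 and 3.35) and znrf3 (3.77), which encodes a ligase that removes Wnt receptors. Peaks of fzd3 and tcf7l2 lie on unplaced scaffolds.

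Synaptic genes were in several lists. Adhesion and scaffold genes had a peak in 6 of 40 (15%, 5.71 to 29.8%), at 5.63 per Mb (2.57 to 10.7). They were nlgn3, for a neuroligin (4.72), dlg3 (4.58), gphn, for the inhibitory synapse scaffold gephyrin (4.55), dlgap4 (4.41 and 4.27), dlgap3 (3.505) and dlg1 (3.33). Genes of presynaptic release had none in 37, which allows a share of up to 8.11%, above the 2.97% of all genes. A lower share than in other genes was therefore not detectable. Ion channel and receptor genes had a peak in 5 of 63 (7.94%, 2.63 to 17.6%), at 2.09 per Mb (0.679 to 4.88). Among those were the calcium channel gene cacnb4 (5.53), the potassium channel gene kcnn2 (4.76) and the glutamate receptor genes grin2b (4.73) and grik4 (4.04). The median length of the listed channel and receptor genes was 170.3 kb, against 29.6 kb over all genes.

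The remaining lists had few or none. Axon guidance and adhesion genes had 3 of 53 (5.66%), robo3 (4.88), ntn1 (3.44) and efnb2 (3.08), at 1.44 per Mb (0.297 to 4.20). Cytoskeleton and kinase genes had 3 of 46 (6.52%), the tau gene mapt (5.40), arhgef7 (4.92) and dst (3.66), at 1.66 per Mb (0.342 to 4.85). Both density intervals held the 1.60 per Mb of all genes. Ubiquitin ligase and transport genes had 1 of 34 (2.94%), rab3gap1 (5.21), at 0.818 per Mb (0.0207 to 4.56). Genes known to respond to TH had 1 of 16 (6.25%, 0.158 to 30.2%), dnmt3a, at 5.94 per Mb (0.719 to 21.4). Hypothalamic and neuroendocrine genes had none of 25, which allows up to 12%. Cytosolic ribosomal protein genes are short, and 2 of 70 matched were over 10 kb in RefSeq, with no peak. The ribosomal hosts rps18, rpl3 and rpl19 (3.87) all lie in deposited genes longer than their RefSeq gene of at most 10 kb.

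Lists for cell types beside neurons had no such peak: none of 14 oligodendrocyte and myelin genes, 9 microglia and macrophage genes, 18 endothelium and blood genes, 18 skeletal and cardiac muscle genes and 12 liver and gut genes. The counts allow shares of up to 21.4%, 33.3%, 16.7%, 16.7% and 25.0%, so these lists are too short to show a share under the 2.97% of all genes. ChIP peaks do not measure expression, and the tissue label could not be checked from them.

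**Figure D5:**
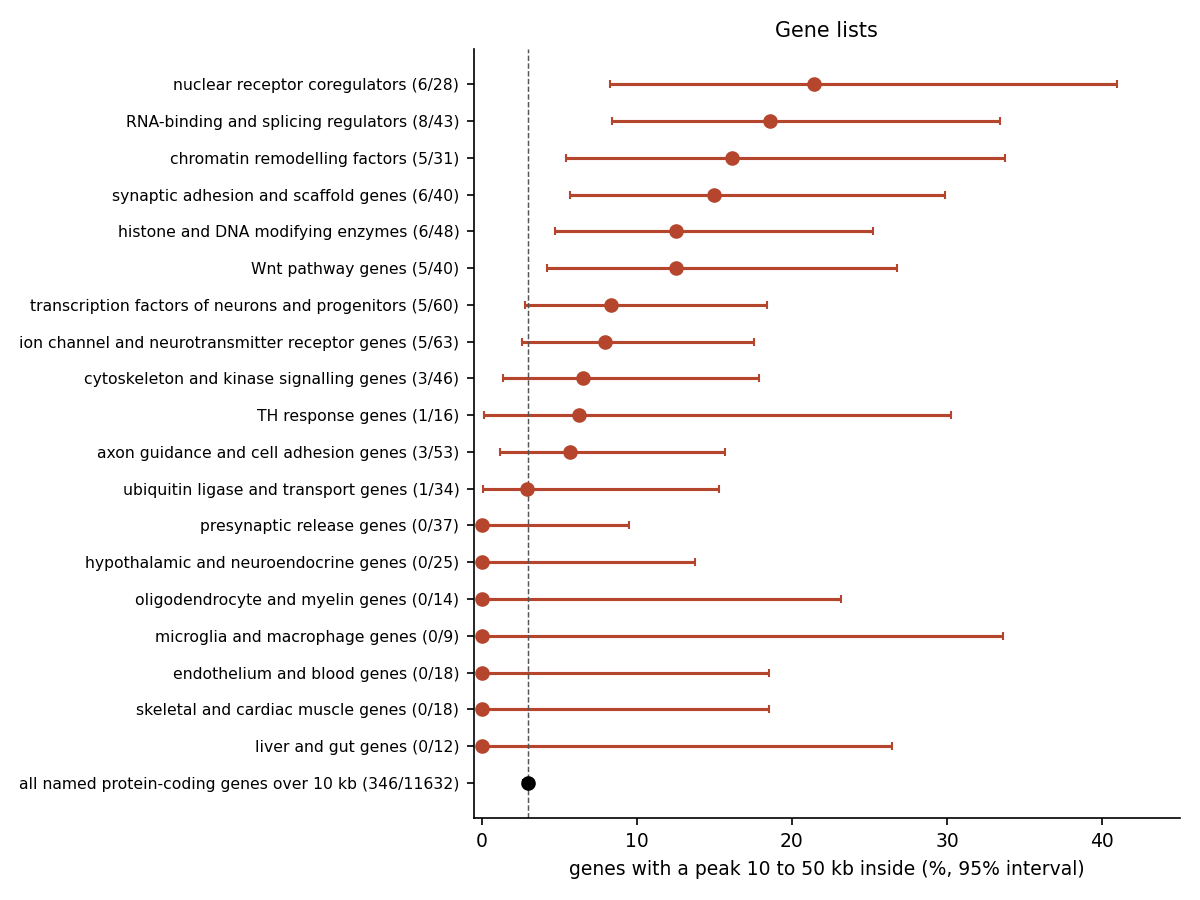
Share of genes over 10 kb long that have a peak over 10 to 50 kb in (%, with exact 95% binomial intervals), for the lists with more than 2 such genes and, in black, for all 11632 named protein-coding genes over 10 kb. The dashed line is the 2.97% of all genes. Coregulators (6 of 28) and RNA-binding genes (8 of 43) have the highest shares with all peaks, and among the peaks above the median −log10 adjusted p they had 5 and 3 genes. Of the lists shown, 7 are at 0. The lists were chosen with earlier results of these data known.

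Across the genome, the share of peaks that lay over 10 to 50 kb in was lowest on chromosome 5, with 25 of 593 (4.22%, 2.75 to 6.16%), and highest on chromosome 9, with 46 of 338 (13.6%, 10.1 to 17.7%). On chromosome 9, 7 of these were in r3hdm1 and 8 lay in the first Mb, where 17 peaks were called in all. Without r3hdm1 the share was 39 of 329 (11.9%, 8.57 to 15.8%), still above the 7.46% of all peaks. Without both, an exclusion chosen after the counts were seen and made on this chromosome alone, it was 31 of 312 (9.94%, 6.85 to 13.8%), and its interval then reached that value. Chromosome 10 had 28 of 263 (10.6%, 7.19 to 15.02%), and the unplaced scaffolds 49 of 540 (9.07%). The other chromosomes lay between 6.10 and 7.87%.

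Peaks on either side of each bound had these values. Just inside 10 kb lay peaks of atp2b3 at 10.03 kb (fold 4.86) and of cttn (9.68), and just outside it those of tet3 (3.68) and of sertad4 at 9.98 kb (3.14). Just inside 50 kb lay peaks of srrm3 (3.30) and of an unnamed gene (3.76), both at 49.96 kb, and just outside it those of mapkap1 at 50.003 kb (6.45) and of LOC100497714 at 50.5 kb (4.04).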

How the data were processed

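ChIP-seq peaks of 1 TR ChIP library and 1 input library were analysed from the 1 deposited list of peak and gene pairs (7848 pairs, 6302 peaks, 5285 genes). Per the submitters' processing notes, processing drew on MACS2 2.2.6 and BWA 0.7.17, beside deepTools 3.5.1, fastp 0.20.1, Picard 2.18.2, FastQC 0.11.9 and SAMtools 1.13. Their roles are not stated. The deposited values are, per the file headers, a fold ratio, a −log10 p-value, a −log10 adjusted p-value (lowest 1.31) and a score. The score was 10 times the adjusted column, rounded down, throughout the list. Peaks come from 1 list, so replicates could not be compared. Genes were paired where the peak met the gene body or its 10 kb upstream. TSSs of genes outside these pairs were not used here.

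Fragments were solved from fold = (ChIP fragments + 1) / (background + 1) and p as the upper Poisson tail. Each of the 6302 peaks was met by a whole number of ChIP fragments. The worst misfit was 2.48e-05 in −log10 p, under a tolerance of 0.0001. This was tested on simulated data. Symbols came from the NCBI number in the deposited description through the RefSeq table (assembly UCB_Xtro_10.0, consulted for symbols and lengths of genes only), otherwise from Xenbase or RefSeq mRNA descriptions. Other deposited names were dropped. Of 395 hosts, 376 were matched and all 376 are protein coding.

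Genes were named by a rule: the 20 named peaks of highest fold, hosts with 3 or more peaks, up to 6 hosts a list, the peaks next to each bound, the 3 widest peaks, and the 3 of highest fold within 5 kb of another TSS. The value of 1 listed gene is not reported here. The unnamed pair on chromosome 9 and the pairs of TSS and intragenic peaks were chosen after their values were seen. The peak set and gene lists were chosen with earlier results of these data known. Python 3.11.15, numpy 2.4.6, pandas 2.3.3 and scipy 1.17.1 were used.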

Additional observations from a re-analysis of the deposited data

How the results depend on the processing

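Of 66 main values recomputed under other settings, 50 stayed within their interval or within 1.5 times the count and 16 moved. All 16 came from stricter peak thresholds, a wider upper bound or another fold threshold. Keeping the peaks above the median −log10 adjusted p left 188 peaks in 172 hosts, with a median fold of 4.88, 26.5 ChIP fragments, 45.7% at a fold of at least 5, 16.3% of hosts with a peak at their own TSS and 25 listed genes. Among the 1000 peaks of highest fold there were 48 in 46 hosts, with a median fold of 6.203, 27.5 fragments, 100% at a fold of at least 5, 8.70% of hosts with a TSS peak and 5 listed genes. The rise in fold and fragments follows from selecting by height. The shares of hosts with a TSS peak have no share of all genes at the same thresholds beside them. The 21.8% of all genes was counted with all peaks, so it is no baseline for these shares. An upper bound of 100 kb gave 92 listed genes, and a fold of at least 4 gave 52.6%. A fold of 4 lies under the median of all peaks, 4.06, so the 52.6% does not set these peaks apart. No share over all peaks was computed beside it or beside the 45.7%. For single lists, 34 of 220 counts moved. With the peaks above the median −log10 adjusted p, the coregulator list had 5 genes, the ion channel list 4, the RNA-binding, histone and DNA enzyme and synaptic adhesion lists 3 each, the transcription factor and Wnt lists 2 each and the chromatin remodelling list 1. The presynaptic list had 5 genes and the hypothalamic list 2 with the bound at 100 kb, and the RNA-binding list had 5 with names as deposited. On assembled chromosomes alone the TH response list had 0 genes, and the chromatin remodelling and Wnt lists had 3 each.

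Leaving out the 56 peaks beyond the RefSeq length, an alternative chosen after seeing the data, moved none of the main values. No paired analysis was possible because each group has 1 library. A search of peak sequences for motifs was not run. With a median of 20 ChIP fragments a summit, differences in fold between most single peaks are not resolved.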
